A study of Gallus gallus with 3 samples.

Results

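The untreated DT40 cells of a study of bursal peptides are described here through 1 array, that of cells kept for 4 h at 0 µg/ml. Members were the genes behind the probes with a RefSeq accession whose spots the scanner software marked as well above background, ranked by processed signal. Of 42034 probes, 5017 carried such an accession, and 3522 of the 4970 left after outlier flags were well above background. A gene symbol could be given to 4000 of the 5017, for 3870 genes in all. Of these, 3830 kept a usable probe and 2797 (73.0%) were detected, meaning that at least 1 of their probes was well above background. Under the scanner software's looser flag of positive and significant signal it would have been 84.9%. Over all probes of the array, 46.4% were well above background and 66.2% passed the looser flag.

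The study measured the RNA of DT40 cells after 4 h on 3 arrays. Each group is 1 array, labelled replicate 1: untreated cells at 0 µg/ml, cells given the peptide BP5 at 0.02 µg/ml, and cells given the peptide BSP-II at 2 µg/ml. All were grown in RPMI 1640 with fetal bovine serum, avian serum and thioglycol, and total RNA was labelled with Cy3 and hybridised on 1-colour chicken arrays. The design text names independent experiments and populations of cells without tying any of them to an array, so whether the arrays hold RNA of separate cultures is unknown here.

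DT40 is an established line from a bursal B cell lymphoma that avian leukosis virus induced in a chicken, and it is 1 clonal line rather than a B cell population of an animal. In such lymphomas a provirus inserted beside MYC drives this growth-promoting transcription factor from a viral promoter. Chicken B cells diversify their immunoglobulin genes in the bursa of Fabricius by gene conversion, a homologous recombination with pseudogene donors, and DT40 cells go on doing so in culture.

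With 1 array there is no replicate, so no test between groups was made and no spread between cultures can be given. The ± beside a signal is the scanner software's error of that spot, which had a median of 10.0% over the detected genes and 15.5% over the dimmest 10%. It covers neither culture nor labelling. A signal also depends on how well its probe binds, so the ranks below are ranks of probes and not of transcript numbers. A rank percentile runs over the detected genes of an array, with 100 for the brightest gene and 50 at the median. In bulk RNA, fewer cells of a kind and less RNA per cell cannot be told apart.

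On the untreated array the 153 negative control spots were all below the background call and read at most 20.3, and 0 probes were saturated. The call marked 68.0% of named genes with BP5 and 69.0% with BSP-II. Signals given below are not scaled between arrays, whose 75th percentiles over probes were 255.2 for untreated cells, 182.3 for BP5 and 157.7 for BSP-II. The 3 arrays lay on 1 slide. Scan 1 held the untreated array alone and scan 2 the others, so the effects of scan and of peptide cannot be told apart. Along the first column of the array only 23.4% of the probes were detected on the untreated array, against 29.0% with BP5 and 31.5% with BSP-II. Of 72 named genes whose probes all lay in columns 1 and 2, 38 (52.8%) were detected on the untreated array.

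The signals of the 2797 detected genes covered several orders of magnitude. SRL, known as the sarcoplasmic reticulum protein sarcalumenin, was the dimmest at 30.3 ± 6.76. The median signal was 1465, the upper quartile 5625 and the lower quartile 291. Genes of the brightest 10% read at least 15799.8, and those of the dimmest 10% less than 84.5.

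MYC stood at percentile 99.96 of the detected genes. Its probe read 169697 ± 16970 on the untreated array, against 175613 with BP5 and 189236 with BSP-II, where it ranked first. It was the only gene of the MYC axis list among the 30 brightest.

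The genes that mark antibody-secreting cells followed at high rank. JCHAIN, which encodes the chain that joins secreted IgM and IgA, read 42411 ± 4241 in untreated cells and stood at percentile 97.46. It read 31762 with BP5 and 30696 with BSP-II. XBP1, the transcription factor of the unfolded protein response that expands the secretory apparatus, read 41562 ± 4156 (percentile 97.32) in untreated cells, 40708 with BP5 and 48466 with BSP-II. JCHAIN and XBP1 thus lay within each other's scanner error on the untreated array.

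IRF4, a transcription factor needed for plasma cell formation, read 22415 ± 2242 (percentile 93.31) in untreated cells, against 24242 with BP5 and 18690 with BSP-II. POU2AF1, a B cell coactivator of octamer-binding factors, read 1317 ± 132 in untreated cells, against 1014 with BP5 and 866 with BSP-II. It stood at percentile 48.09, near the middle of the detected genes and far below the other 4 markers. All 5 markers were detected on all 3 arrays.

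**Figure D1:**
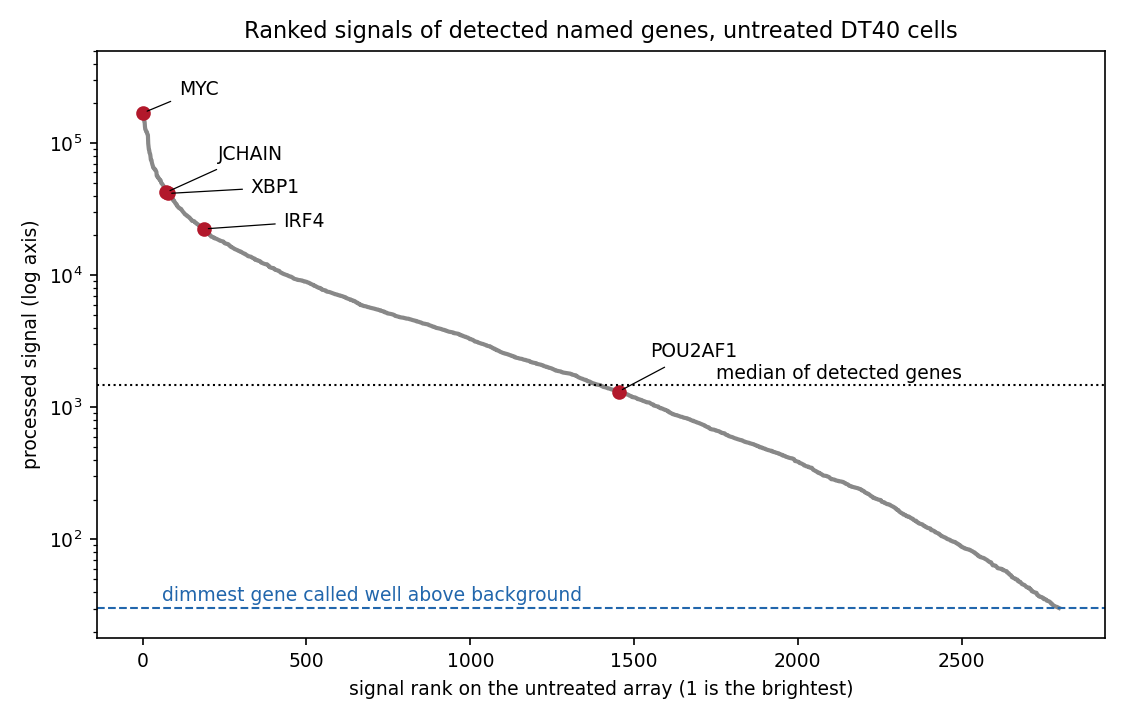
Processed signal (log axis) of the 2797 named genes detected on the untreated array, in order of rank from the brightest to the dimmest, with the 5 marker genes as points. MYC lies at the top end, JCHAIN, XBP1 and IRF4 lie within the brightest 10%, and POU2AF1 lies beside the dotted line at the median of 1465.

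Parts of the machinery of protein synthesis made up the largest group of the brightest genes that the lists name. Of the 30 brightest, 10 encode ribosomal proteins, among them RPL7A, RPS15, RPLP1, RPL6, RPL13, RPL4, RPL36, RPS6 and RPL5. RPL7A read 165567 ± 16557 and RPS15 164376 ± 16438 in untreated cells, both within the scanner error of MYC. Another 3 serve translation, namely PABPC1, the cytoplasmic poly(A)-binding protein (124561), TPT1, a growth-related protein that binds elongation factors (121526), and EIF3I, a subunit of initiation factor 3 (74619).

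Enzymes of energy and nucleotide metabolism stood beside them. The table names 1 pyruvate kinase probe as PKLR, and it read 121906 ± 12191. GPI, glucose-6-phosphate isomerase, read 82206, and IMPDH2, which makes the first step towards guanine nucleotides, read 89304. ITGB1BP3, another name of the nicotinamide riboside kinase NMRK2 that makes a precursor of NAD, read 121154.

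The remaining genes of the 30 came from several compartments. FTH1, the heavy chain of the iron store ferritin, read 163721 and 130011 on its 2 probes. PHB2, a scaffold of the inner mitochondrial membrane, read 126074, HDLBP, an RNA-binding protein of many domains, 99179.98, and SELENOW, a small selenoprotein, 88734. HINTW, a gene of the female-specific W chromosome with a close relative on the Z chromosome, read 116595, and whether its probe also binds transcripts of that relative was not tested. CDC42, a small GTPase that shapes the actin cytoskeleton, read 93479 and PFN2, a profilin that binds actin monomers, 84244.

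CTSA, a lysosomal carboxypeptidase, read 83658, and MAP1LC3B, a protein of the autophagosome membrane, 74298. SET, a histone chaperone, read 71446, H3F3B, which encodes the replacement histone H3.3, 69888, and PSMA3, a subunit of the proteasome core, 68328. In all, 17 of the 30 brightest genes belonged to 1 of the 26 gene lists used here and 13 to none. Of the 279 genes of the brightest 10%, 90 were on a list.

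The middle of the ranking held regulators and housekeeping genes of many kinds. The 15 genes around the median read between 1431 and 1479 on the untreated array, a span smaller than the scanner error of any of them. Among them were TAF5, a subunit of the general transcription factor TFIID (1478 ± 148), CENPO, a kinetochore protein (1451 ± 145), BECN1, which starts autophagy (1449.9 ± 145), and ADARB1, an adenosine deaminase that edits RNA (1479 ± 148). GRPEL1, a cofactor of the mitochondrial chaperone, and NKIRAS2, a small GTPase that restrains NF-κB, both read 1465. FRZB, a secreted antagonist of WNT ligands, read 1474, MAD2L1BP, which switches off the spindle checkpoint, 1475, and CELF2, a regulator of splicing in lymphocytes, 1431.

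The other genes of the middle were SH3KBP1, an adaptor of receptor endocytosis (1432), ARHGAP15, which inactivates RAC (1454), CCPG1, which targets the endoplasmic reticulum for autophagy (1473), CLDND1, TMEM170A and BCAS3. The last 3 read 1469.9, 1443 and 1439. By the rank of its 1 probe, POU2AF1 stood near these genes, at percentile 48.09, and below JCHAIN, XBP1 and IRF4.

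At the lower end the call split genes with almost equal signals. Just inside were NCAM1, a neural cell adhesion molecule (30.4), PIK3AP1, an adaptor of B cell receptor signalling (30.4), and SRL (30.3). Just outside were CDH2, the cadherin of neural cells (30.1), FOXP1, a transcription factor active in B cell development (30.04), and PTGFR, the receptor of prostaglandin F2α (30.02). Of the 1033 undetected genes, 579 sat at the floor of 6.06 to which the scanner software sets dim spots.

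The shares of detected genes differed widely between the gene lists. Among 208 genes of 9 lists for protein synthesis, protein folding and breakdown, splicing, DNA replication, mitosis and energy metabolism, 200 (96.2%) were detected, beside 73.0% of all named genes. Among 211 genes of 10 lists for other cell lineages, hormones and Hox genes, 54 (25.6%) were detected. The detected genes of the first union had a median percentile of 80.89, with 155 above the overall median and 83 in the brightest 10%. Those of the second had a median percentile of 15.45, with 7 above the median and 0 in the brightest 10%. Under the looser flag 203 genes (97.6%) of the first union and 115 (54.5%) of the second passed, beside 84.9% of all named genes. As the plot of detected shares shows, the lists of B cell identity and B cell receptor signalling lay near the share of all named genes. All genes of the plasma cell and MYC axis lists that had a named probe were detected. Such a probe existed for 10 of 29 symbols listed for plasma cells, 18 of 37 for the MYC axis and 23 of 51 for B cell identity. List members without a named probe are in none of the counts.

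**Figure D2:**
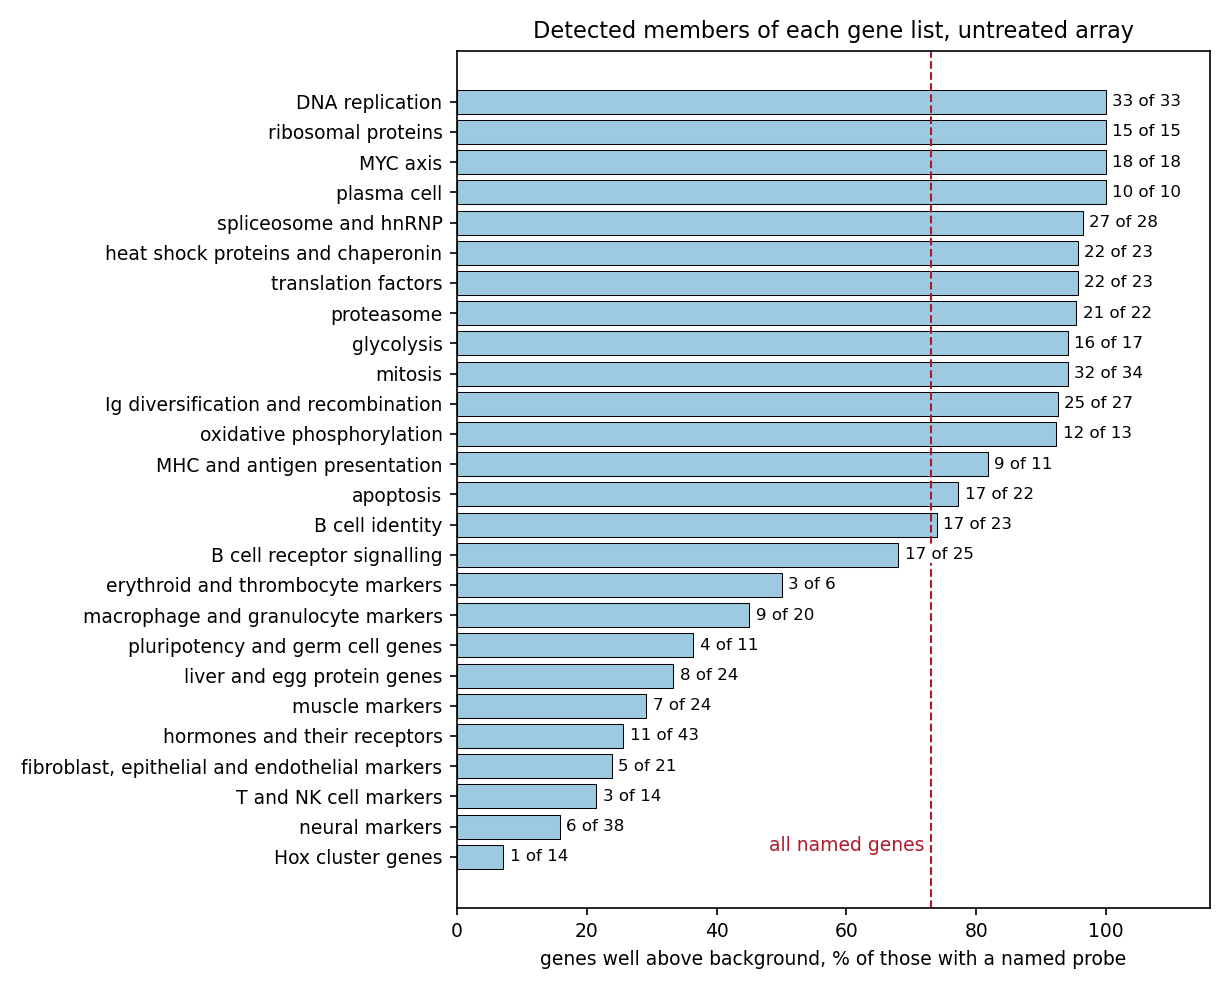
Share of the genes of each list with a named probe that were well above background on the untreated array, with the counts beside the bars. The dashed line is the 73.0% of all named genes. The bars run from 33 of 33 for DNA replication to 1 of 14 for Hox cluster genes.

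Of the 23 B cell identity genes with a named probe 17 were detected (73.9%), close to the share of all named genes. Their median percentile was 25.92, and only IRF8 and TCF3 stood above the overall median. IRF8, a factor of germinal centre and myeloid cells, read 8136 on the untreated array, 6030 with BP5 and 4846 with BSP-II. TCF3, the E protein that starts the B lineage programme, read 7182 on the untreated array, 4145 with BP5 and 4171 with BSP-II. Both ranked above the upper quartile of the detected genes of the untreated array.

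Genes of the surface and of lymphoid development were dimmer. IKZF1, the lymphoid zinc finger factor Ikaros, read 954, and CD74, the invariant chain of class II molecules, 928. ID3, an antagonist of E proteins, read 719, BCL11A, a zinc finger factor of early B cells, 488, and the chemokine receptor CXCR4 444. MYB, a factor of immature blood cells, read 311, FOXO1, which maintains early B cells, 246, and BCL6, the master regulator of the germinal centre, 244.

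The other detected members were ID2 (249.7), LY86, a partner of the receptor-like protein CD180 (223), RUNX1 (87.4), LEF1 (77.2), POU2F1 (69.0) and the costimulator CD86 (56.2). CD86 was not detected on either peptide array and LEF1 not on the BSP-II array. The lowest signal called was 49.1 with BP5 and 36.7 with BSP-II, against 30.2 on the untreated array. Signals are not scaled between arrays, and whether these limits bear on the lost calls was not tested. Across all 17, the untreated signals ran from 56.2 to 8136.

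Some genes of the B cell identity list were not well above background. Under the looser flag 21 of its 23 genes with a named probe passed, beside 84.9% of all named genes. PAX5, the factor that commits cells to the B lineage, read 16.7 on the untreated array, and EBF1, its upstream partner, 9.27. CD79B, a signalling chain of the B cell receptor, and SPI1, a factor of B and myeloid cells, sat at the floor of 6.06. RAG1, the recombinase of V(D)J joining, read 7.96, and CD40, the receptor for T cell help, 28.8. All 6 were undetected on either peptide array as well. Each had 1 probe, and 0 negative control spots exceeded 20.3 on the untreated array, so CD40 alone of the 6 read more than the highest negative control.

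Where 1 probe is not called well above background, a missing transcript, a weak one and a probe that binds poorly cannot be told apart. Which applies was not tested. Among the 208 genes of the cellular machinery 8 were undetected on all 3 arrays: EEF1B2 (an elongation factor subunit), SMC4 (a condensin subunit), CENPK (a kinetochore protein), HK2 (a hexokinase), NDUFB9 (a respiratory complex I subunit), HSPB2 (a small heat shock protein), PSMD14 (the deubiquitinase of the proteasome) and PTBP3 (a splicing regulator). EEF1B2, CENPK, HK2, HSPB2 and PTBP3 read the floor of 6.06 on the untreated array, SMC4 9.31, PSMD14 20.1 and NDUFB9 28.8.

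**Figure D3:**
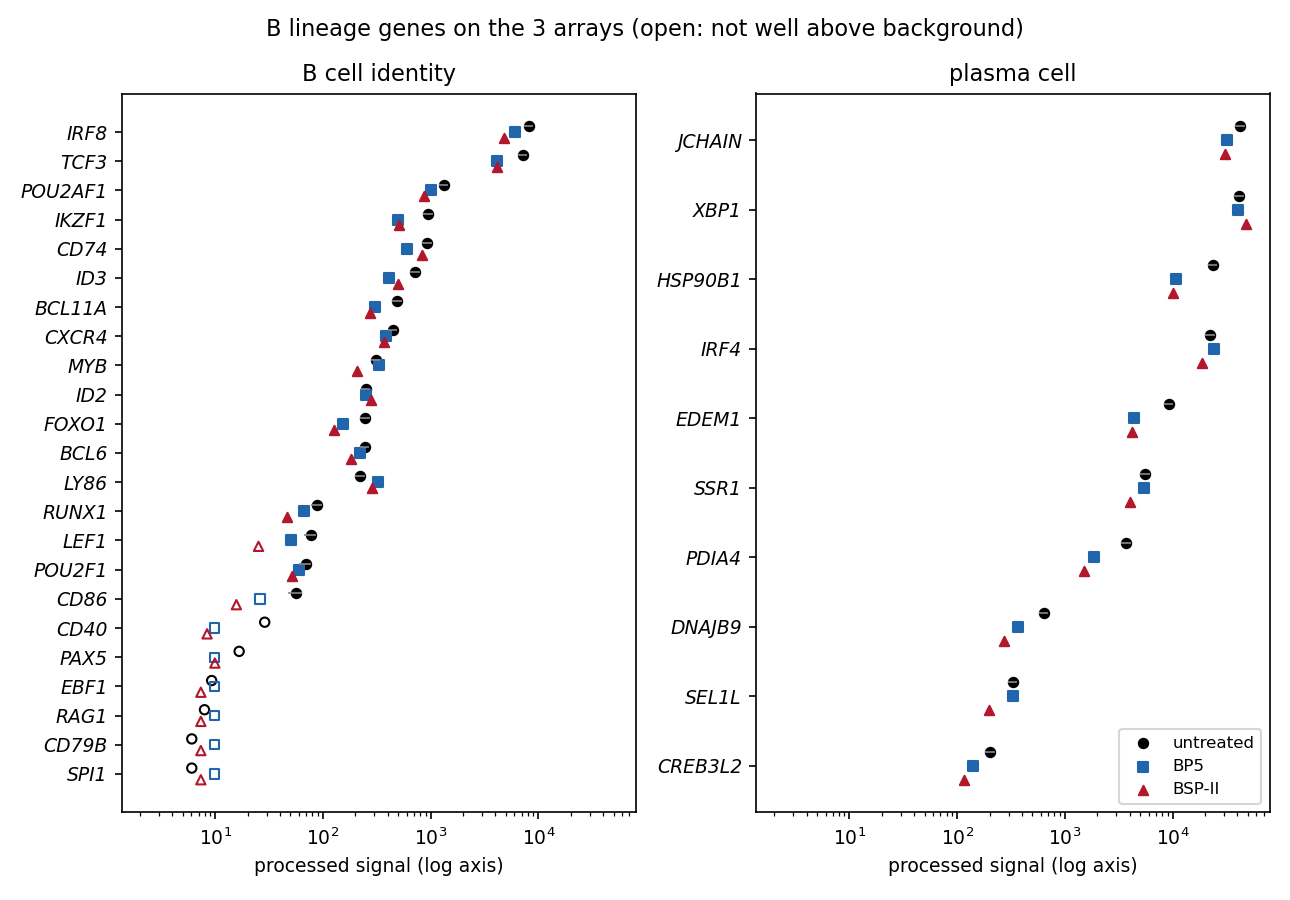
Processed signal (log axis) of each B cell identity gene and each plasma cell gene with a named probe, on the untreated, BP5 and BSP-II arrays, not scaled between arrays. Open symbols were not well above background, and the lines on the filled untreated points are the scanner error. The plasma cell genes are filled on all 3 arrays, while the 6 lowest B cell identity genes are open on all 3.

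All 10 plasma cell genes with a named probe were detected on each of the 3 arrays, beside 73.0% of named genes on the untreated array. The list held 29 symbols, and those without a named probe, such as PRDM1, SDC1, TNFRSF17 and MZB1, could not be judged. Their median percentile was 78.98, with 7 above the overall median and 4 in the brightest 10%. The 4 were JCHAIN, XBP1, IRF4 and HSP90B1, the chaperone of the endoplasmic reticulum, which read 23736 on the untreated array, 10786 with BP5 and 9989 with BSP-II. EDEM1, which marks misfolded glycoproteins for disposal, read 9209.7 in untreated cells, 4396 with BP5 and 4234 with BSP-II. SSR1, a subunit of the translocon, read 5596, and PDIA4, a protein disulphide isomerase, 3726 in untreated cells.

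The dimmest 3 of this list were DNAJB9, a cochaperone of the endoplasmic reticulum (636), SEL1L, a scaffold of the ubiquitin ligase for misfolded proteins (329), and CREB3L2, a membrane-bound transcription factor of secretory cells (201). Most of the list therefore consists of general genes of the secretory pathway, and only JCHAIN, XBP1 and IRF4 among the detected members are named for antibody-secreting cells in particular.

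Of 25 genes of B cell receptor signalling 17 (68.0%) were detected, with a median percentile of 30.64. STIM1, the calcium sensor of the endoplasmic reticulum, was the brightest at 3194 in untreated cells, followed by NFKBIA, the inhibitor of NF-κB (2537), and PIK3CD, the lymphocyte PI3 kinase (2362). The kinases next to the receptor were dimmer: SYK read 453, BTK 81.4 and LYN 31.7. LYN was undetected on both peptide arrays, where the lowest signals called were 49.1 (BP5) and 36.7 (BSP-II). Whether these limits bear on its lost calls was not tested. VAV2, an exchange factor for small GTPases, read 1413, and NFKB2 1488.

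The 8 undetected members of this list included the kinases AKT1 and PRKCD, the ubiquitin ligase CBL, the calcium channel ITPR3, NFKB1, the leukocyte phosphatase PTPRC and RASGRP3. The 8 read between 6.06 and 21.8 on the untreated array and were undetected on all 3 arrays. The list of receptor signalling thus had a detected share near that of all named genes, and no member in the brightest 10%. Under the looser flag 20 of its 25 genes passed, beside 84.9% of all named genes.

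Genes of immunoglobulin diversification and homologous recombination were nearly all detected but mostly of middle or low signal. Of 27 with a named probe 25 (92.6%) were detected, beside 73.0% of all named genes, with a median percentile of 39.72. PARP1, which senses DNA breaks, read 8365 on the untreated array, 8770 with BP5 and 9057 with BSP-II. DNA2, a nuclease of end resection, read 6810 in untreated cells, and XRCC6, the Ku70 protein of end joining, 6633. All 3 stood above the upper quartile.

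UNG, the glycosylase that removes uracil from DNA, read 2662 on the untreated array, 1661 with BP5 and 1559.9 with BSP-II. RAD18, the ubiquitin ligase of replication bypass, read 4880.4, FANCL, the ligase of the Fanconi pathway, 5656, and XRCC3, a protein of homologous recombination, 756. BRCA1 read 778, the checkpoint kinase CHEK1 269, and the translesion polymerases POLH 413 and REV1 199. ATM read 79.96 and the helicase BLM 34.8. BRCA2, a mediator of homologous recombination, was undetected at 7.68, as was FANCD2 at 17.8.

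The MYC axis list holds MYC, its partners and commonly cited targets. All 18 of its genes with a named probe were detected, beside 73.0% of all named genes. Their median percentile was 70.97, with 6 in the brightest 10%. The detected genes of the machinery lists had a median percentile of 80.89, and HSPD1, ENO1 and LDHA are on those lists too. HSPD1, a mitochondrial chaperonin, read 52110 in untreated cells, 29267 with BP5 and 22917 with BSP-II. NPM1, the nucleolar protein nucleophosmin, read 47981, ENO1, a glycolytic enolase, 42428, NCL, the nucleolar protein nucleolin, 36027, and LDHA, lactate dehydrogenase A, 22763. CCND1 and CCND3, the D cyclins of the G1 phase, read 5864 and 5138.

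Not all targets on the list were bright. E2F1, a factor of S phase entry, read 245, TERT, the telomerase subunit, 178, and HSPE1, the cochaperonin of HSPD1, 44.8. HSPD1 and HSPE1, whose products work as 1 complex, thus stood at percentiles 98.1 and 3.75 of the untreated array. MXI1 and MXD4, antagonists of MYC at its partner MAX, read 716 and 1495.

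Among the lists of cellular machinery the ribosomal proteins stood highest. All 15 were detected, beside 73.0% of all named genes. Of the 15, 14 were in the brightest 10%, and their median percentile was 99.46. RPL37 was the exception at 253 ± 26.0 in untreated cells, and it was undetected with BP5 (22.1) and with BSP-II (20.1). Translation factors had 22 of 23 members detected with a median percentile of 94.28. Besides those named above, EIF4A3, a helicase of the exon junction complex, read 54873.

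**Figure D4:**
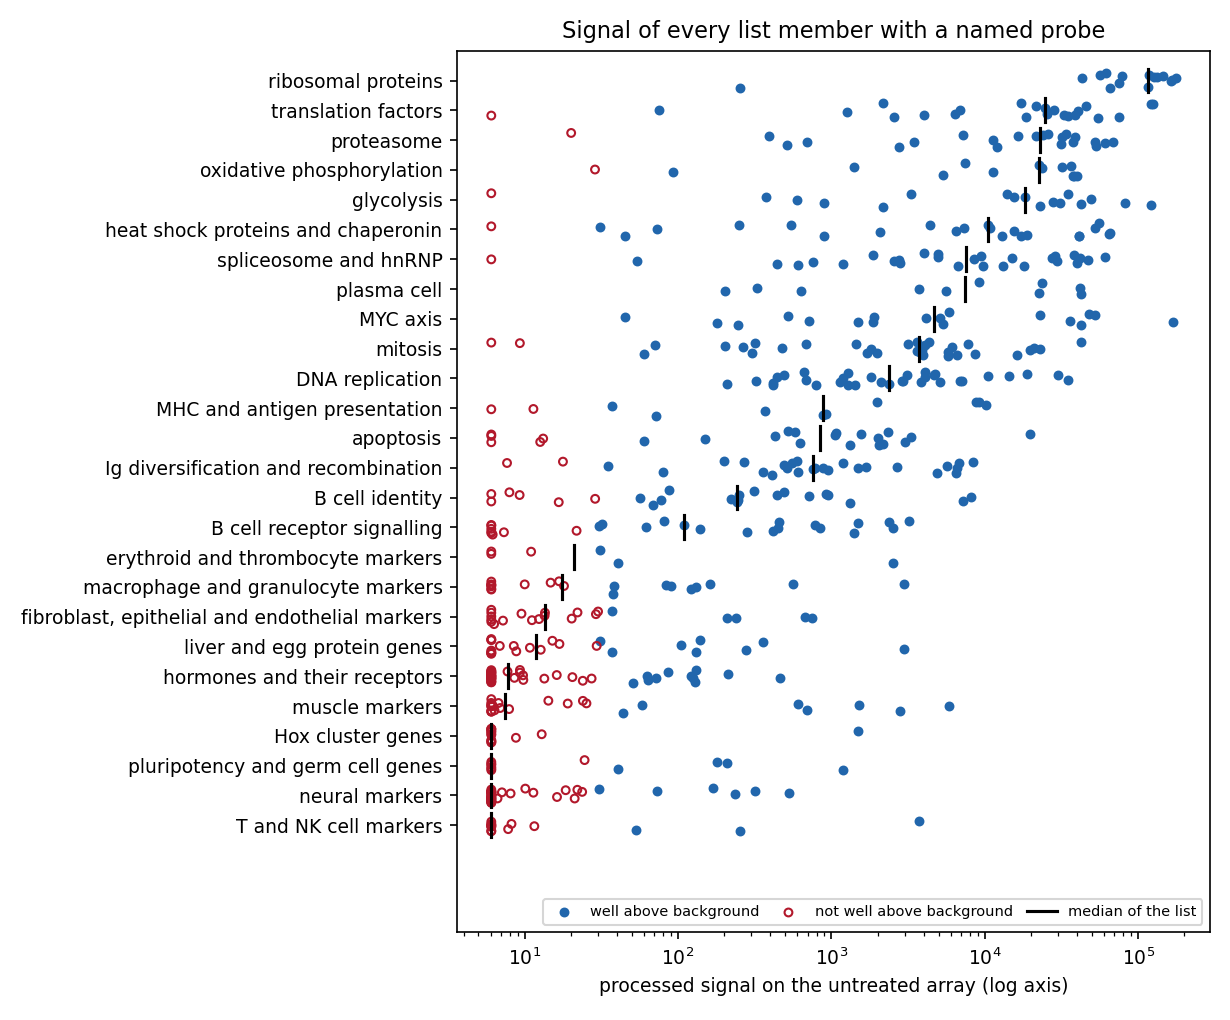
Processed signal on the untreated array (log axis) of every list member with a named probe, 1 line per list ordered by the median over all members. Filled points were well above background and open points were not. Ribosomal proteins lie at 43286 or more apart from RPL37 at 253, while most open points of the lineage lists lie at the floor of 6.06.

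Protein breakdown and folding were also high. The proteasome had 21 of 22 genes detected, beside 73.0% of all named genes, at a median percentile of 93.92. It was led by PSMA3 and by PSMC2 (61089) and PSMC1 (53102), ATPases of its cap. Heat shock proteins and the chaperonin had 22 of 23 detected at a median percentile of 85.15. TCP1 and CCT2, subunits of the cytosolic chaperonin, read 65396 and 55216, and HSPA2, a member of the HSP70 family, read 53404 and 78054 on its 2 probes. The spliceosome list had 27 of 28 detected at a median percentile of 81.44, led by DDX5, an RNA helicase (60394), SNRPD3, a core snRNP protein (47016), and TRA2B, a splicing regulator (42080).

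Energy metabolism stood at a like level. Of the 17 glycolysis genes 16 were detected, beside 73.0% of all named genes, at a median percentile of 92.62. LDHB, lactate dehydrogenase B, read 49279.5, after PKLR and GPI. Of the 13 genes of oxidative phosphorylation 12 were detected, at a median percentile of 93.62. SDHB, the iron-sulphur subunit of succinate dehydrogenase, read 39760.4, SLC25A3, the mitochondrial phosphate carrier, 38287, and UQCRFS1, the Rieske protein of complex III, 37885. SLC2A1, the glucose transporter GLUT1, read 3322.

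All 33 DNA replication genes and 32 of 34 mitosis genes were detected, beside 73.0% of all named genes. Their median percentiles were 59.28 and 67.05. When all probes of a gene had to be detected, the DNA replication count was 32. FEN1, the flap nuclease of lagging strand synthesis, read 35121 in untreated cells, 24789 with BP5 and 22447 with BSP-II. TOP1, topoisomerase I, read 30065, RPA2, a subunit of the single-strand binding protein, 18926, and MCM2, a subunit of the replicative helicase, 14405. PRIM2, a primase subunit, was the dimmest of the list at 207.

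In mitosis CCNB1, the cyclin of entry into M phase, read 42386 in untreated cells, 31773 with BP5 and 33475 with BSP-II. CDC20, the activator of the anaphase-promoting complex, read 23064, WEE1, the kinase that holds cells in G2, 20825, and BIRC5, survivin, 19595. PLK1, a mitotic kinase, read 6565 and CCNA2, cyclin A2, 4322. The kinetochore checkpoint kinase TTK read 203 and BUB1B 71.0, so genes of 1 process covered most of the range of signals.

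Antigen presentation had 9 of 11 genes (81.8%) detected, beside 73.0% of all named genes, at a median percentile of 42.62. The brightest 3 were general: PDIA3, a disulphide isomerase of class I loading (10131), CTSB, a lysosomal protease (9157), and CANX, the chaperone calnexin (8739). DMA, which loads peptides onto class II molecules, read 369.99. B2M, the light chain of class I molecules, sat at the floor of 6.06 and TAP2, a subunit of the peptide transporter, read 11.4. B2M was undetected on all 3 arrays.

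Of 22 apoptosis genes 17 (77.3%) were detected, near the 73.0% of all named genes. Their median percentile of 48.27 lay near the 50 of all detected genes. BIRC5 led, and the executioner caspase CASP6 read 3042. The survival genes BCL2L1 and BCL2 read 2326 and 2171, close to the death genes BID (2009) and BAK1 (1571). BCL2A1, BOK, CASP18, TNFRSF10B and TRAF5 were undetected, at 6.06 to 13.2.

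Of 40 markers of other blood cells 15 were well above background, beside 73.0% of all named genes. Under the looser flag 23 (57.5%) passed, beside 84.9% of all named genes. Of 14 T and NK cell markers 3 were detected. CD3D, a chain of the T cell receptor complex, read 3703 on the untreated array, 2191 with BP5 and 2540 with BSP-II, at percentile 66.25 of the untreated array. CD247, the zeta chain of the same complex, read 253 and CD7 53.0. CD3E, CD4, CD5, CD8A and GATA3 all sat at the floor of 6.06.

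Of 20 macrophage and granulocyte markers 9 were detected, beside 73.0% of all named genes, at a median percentile of 14.23. AVD, avidin, a biotin-binding protein of egg white and of inflamed tissue, read 2963, CEBPB, a transcription factor of myeloid cells, 561, and CTSK, a protease of osteoclasts, 162. LYZ read 131 and the macrophage receptors MARCO, TLR4 and TREM2 6.06. Of 6 erythroid and thrombocyte markers 3 were detected: TUBB1, a tubulin of thrombocytes, at 2534, and GATA2 and TAL1 at 40.5 and 31.2. HBBA, a beta globin, was undetected at 11.0.

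By the call of well above background, markers of solid tissues were at a like or lower share, beside 73.0% of all named genes. This order did not hold under the looser flag. It passed 16 of 21 fibroblast, epithelial and endothelial markers and 16 of 38 neural markers. It also passed 16 of 24 muscle markers and 16 of 24 liver and egg protein genes, beside 84.9% of all named genes. Of 21 fibroblast, epithelial and endothelial markers 5 were detected, led by EPCAM, an epithelial adhesion molecule (751), COL6A2, a collagen VI chain (670), and CDH1, E-cadherin (237). COL3A1, DCN, KDR and PDGFRA sat at the floor. Of 38 neural markers 6 were detected, the brightest being MBP, myelin basic protein (526), OLIG2 (316) and GFAP (234), and 22 sat at the floor, among them SOX2, GAD1 and SYT1.

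Of 24 muscle markers 7 were detected, beside 73.0% of all named genes. TPM1, a tropomyosin also made outside muscle, read 5822, TNNI2, the inhibitory troponin of fast muscle, 2818, and TNNC1, troponin C of slow muscle, 1512. Of 24 liver and egg protein genes 8 were detected, with AVD, RBP4A (358) and APOA4 (278) at the top. VTG1, VTG2 and SPINK7 sat at the floor, and ALB, serum albumin, read 139.

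Of 11 pluripotency and germ cell genes 4 were detected, beside 73.0% of all named genes: SALL4 (1185), CLDN3 (207), TERT (178) and GDF3 (40.5). Of 43 genes of hormones and their receptors 11 were detected, led by GHR, the growth hormone receptor (461), VDR, the vitamin D receptor (210.3), and MC1R (132). Of 14 Hox genes HOXA4 alone was detected. It read 1485 on the untreated array, 739 with BP5 and 838 with BSP-II, while the other 13 read at most 12.9. The marker lists of other lineages thus held few bright genes, and CD3D, AVD, TUBB1, TPM1, TNNI2, TNNC1 and HOXA4 were the 7 above the median of all detected genes.

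How far 1 probe stands for a gene could be seen in 109 genes with several probes. In 69 of these all probes were detected, in 20 none, and in 20 the calls differed. Over 93 pairs of probes of 1 gene that were both detected, the median ratio of the brighter to the dimmer signal was 4.77-fold, 68 pairs differed by 2-fold or more and 31 by 10-fold or more. WDR81 read 61.0 and 5551 on its probes, TXNRD3, a thioredoxin reductase, 212 and 18626, and DUT, the dUTPase, 6.06 and 1287. The 5 markers each had 1 probe. The median of these ratios far exceeds the scanner error.

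The peptide arrays gave the check of rank. Of 3827 named genes measured on all 3 arrays 2560 were detected on all and 1017 on none. The call was the same on the untreated and the BP5 array for 3599 genes (94.0%), and on the untreated and the BSP-II array for 3635 (95.0%). Across the genes detected on both arrays, Spearman's rho of the signals was 0.977 for BP5 (2578 genes) and 0.981 for BSP-II (2618 genes), and Pearson's r of the log2 signals was 0.974 for BP5 and 0.979 for BSP-II. Genes are not independent replicates, and the arrays share probes and a slide, so these values describe the arrays. Of the 30 brightest genes of the untreated array 27 were among the 30 brightest of the BP5 array and 26 among those of the BSP-II array. Of its brightest 279 genes, 246 were among the brightest 279 with BP5 and 253 with BSP-II.

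Of the 3827 genes measured on all 3 arrays, 161 were detected on the untreated array only, with a median signal of 44.6 there. Another 9 were detected on both peptide arrays only. The call began at unequal signals, namely 30.2 on the untreated array, 49.1 with BP5 and 36.7 with BSP-II. Signals are not scaled between arrays, so the median of 44.6 on the untreated array cannot be set directly against the limits of the peptide arrays. The limit was thus lowest on the untreated array, where the 9 were not called. Of the 9, 4 had a probe in columns 1 or 2, against 75 of all 3830 named genes. How far the limits account for the 161, and the array's edge for the 9, was not tested. The brightest of the 161 were SKP1, a subunit of SCF ubiquitin ligases (314), KDSR, an enzyme of sphingolipid synthesis (275), IRF7, a factor of interferon responses (254), and RPL37 (253). SKP1 read 10.9 with BP5 and 14.6 with BSP-II.

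For shifts of rank, percentiles were taken over the 2560 genes with a probe detected on all 3 arrays, using the same probes on each. The median shift without regard to sign was 2.97 points for BP5 and 2.70 for BSP-II. The untreated percentile exceeded that of the BP5 array by 20 points or more for 25 genes (0.977%), and that of the BSP-II array for 14 (0.547%). It was lower by as much for 14 genes (0.547%) in each of the comparisons. Both comparisons share the untreated array.

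The untreated array ranked 14 genes at least 20 points higher than both peptide arrays did, and 0 of these had a probe in columns 1 or 2. MCM5, a subunit of the replicative helicase, read 1138 on the untreated array (percentile 40.35), 49.3 with BP5 (0.04) and 64.0 with BSP-II (3.75). SIKE1, a suppressor of the kinase IKKε, had percentiles of 37.19 in untreated cells, 4.69 with BP5 and 5.35 with BSP-II. DNMT1, the maintenance DNA methyltransferase, had 44.77 in untreated cells, 14.06 with BP5 and 19.92 with BSP-II. These 3 genes stood in the middle of the untreated ranking. On the peptide arrays MCM5 and SIKE1 stood near the lower end, and DNMT1 stood above them.

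Of the other 3 with the largest such shifts, CASC4 had percentiles of 50.51 on the untreated array, 19.22 with BP5 and 17.27 with BSP-II. POP4, a subunit of RNase P, had 41.60 on the untreated array, 12.93 with BP5 and 15.08 with BSP-II. CCPG1, one of the genes at the median of the untreated array, had 45.27 there, 20.70 with BP5 and 19.73 with BSP-II.

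In the other direction the untreated array ranked 10 genes at least 20 points lower than both peptide arrays did. Of these, 9 had a probe in columns 1 or 2, against 75 of all 3830 named genes, detected or not. Such probes were not counted among the 2560 genes from which the 10 come. The 6 with the largest shifts all had their probe in column 1, where fewer probes were detected on the untreated array than on the others. PGS1, an enzyme of cardiolipin synthesis, read 1833 on the untreated array (percentile 49.69), 5788 with BP5 (81.56) and 5829 with BSP-II (81.68). TIPIN, a protein of the replication fork, had percentiles of 23.01 on the untreated array, 53.09 with BP5 and 58.91 with BSP-II. YOD1, TCEB1, SURF6 and LIMD2 had untreated percentiles of 28.36 to 46.48, all at least 20 points lower than on either peptide array. The share of the array's edge in these shifts was not tested.

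**Figure D5:**
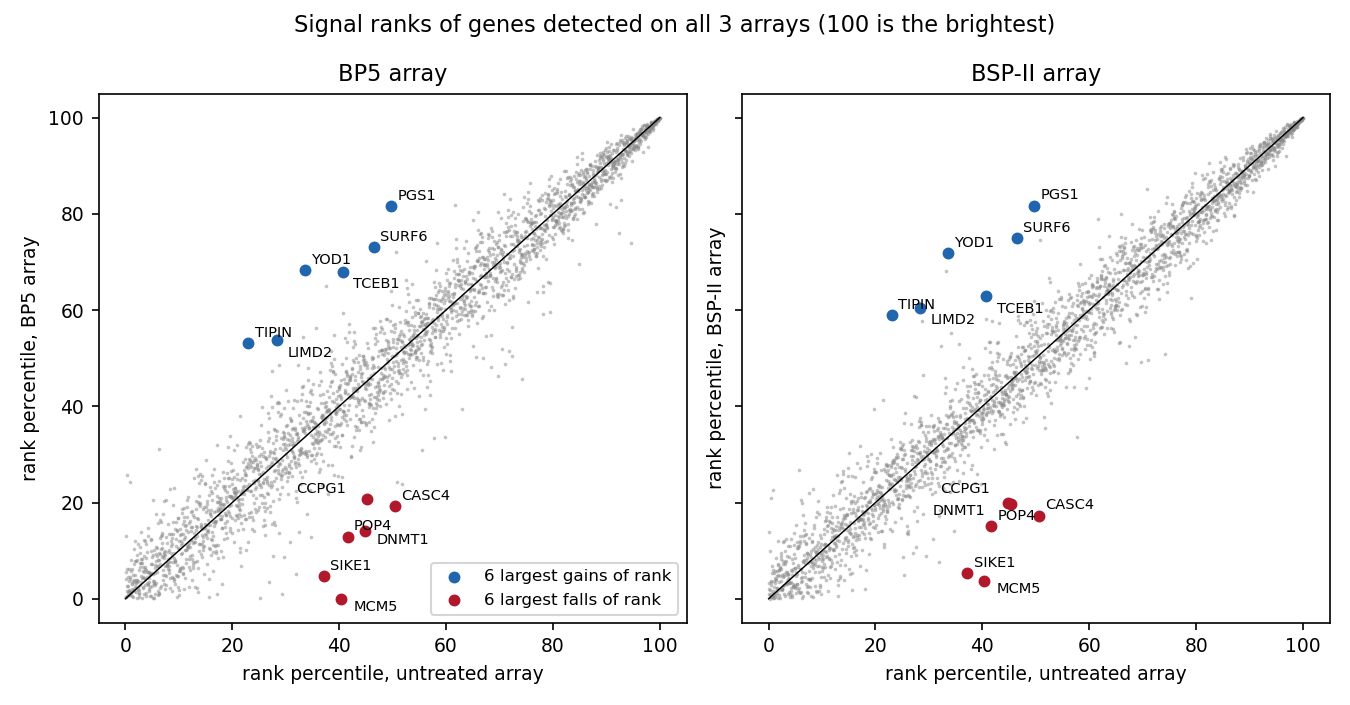
Rank percentile of the 2560 genes with a probe detected on all 3 arrays, on the untreated array (horizontal) and on the BP5 or BSP-II array (vertical), with the line of equal rank. Points gather along the line, most closely at the bright end. The 6 largest falls below it, such as MCM5, and the 6 largest gains above it, such as PGS1, are those of the peptide arrays relative to the untreated array.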

How the data were processed

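The untreated, BP5 and BSP-II cells were each measured on 1 one-colour array, and the scans were quantified with Agilent Feature Extraction 10.5.1.1, per the submitters' processing notes. The deposited intensity of each spot is the processed signal, background-subtracted and detrended with a floor for dim spots and not normalized between arrays, per the file headers. Flags of 0 or 1, per the file headers, mark spots well above background and outliers. The authors also deposited log2 values of 20085 probes, whose medians were 7.75 in each column. Their ranks on the untreated array equalled those of the processed signal (Spearman's rho of 1), their columns are not centred per gene, and no source used here states their normalization. They served as an alternative, which with this rho could not change the order of the probes on the untreated array.

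Control spots and outlier spots of an array were left out. Accessions were matched without version to RefSeq's GRCg7b gene table, used for names only; no coordinates are given, since the array's grid names another assembly. The 1017 accessions that did not match stay unnamed, and predicted non-coding accessions were kept among the RefSeq probes (none was named). A gene was detected if any probe was well above background, and its signal was the mean log2 signal of its detected probes. No test between groups was made, with 1 array each. Members and lists were chosen with earlier results of these data known. Named were the 5 markers, the 30 brightest genes, the 15 at the median, the 3 on each side of the call, the 3 brightest of each list, up to 5 undetected members of lists with under 80% detected, and the 6 largest shifts of rank each way on both peptide arrays. A few genes so chosen are left out of the text, and further list members were named after their values were seen. Shifts use the same probes on every array, a choice made after seeing the data, because genes with several probes had shifted when different probes entered. The deposited columns hold a median but no mean spot signal, so the median was used where the plan named the mean. Sequence features were not analysed here. Steps were tested on simulated data. Python 3.11.15, pandas 2.3.3, scipy 1.17.1, R 4.3.3 and limma 3.58.1 (normexp, offset 50) were used.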

Additional observations from a re-analysis of the deposited data

Results flagged for a closer look

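A pair of signals lies in data that no comparison above uses. Of the 36922 probes without a RefSeq accession, 15928 (43.1%) were well above background on the untreated array, against 0 of 153 negative control spots. Of these, 51 were brighter than the 30th brightest named gene, and the brightest read 209288. They have no gene name here. Of the 1012 probes with a RefSeq accession but no gene symbol, 645 (63.7%) were well above background on the same array, and 1 of them was among the 30 brightest probes with an accession. The bright end described above is therefore that of the named genes, not of all transcripts on the array.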

How the results depend on the processing

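No paired analysis was possible because each group holds 1 array, and for the same reason no array could be left out in turn. The count of 2797 detected genes became 3251 with the looser flag of positive and significant signal, 2563 when detection on all 3 arrays was asked for, 2777 when all probes of a gene had to be detected, 2838 with outlier spots kept, 2719 without the outermost columns and 3415 with accessions in place of symbols. All of these stayed within 1.5 times. For some settings this was fixed in advance. With 2797 of 3830 genes detected, the looser flag could not raise the count by 1.5 times. Asking for all probes could drop only the 20 genes whose probes had different calls. In the same way, lists with most members detected could not rise by 1.5 times. Of 130 recomputed list counts 122 stayed within 1.5 times and 8 did not. With the looser flag the detected members numbered 6 for T and NK cell markers, 16 for fibroblast, epithelial and endothelial markers, 16 for neural markers, 16 for muscle markers, 16 for liver and egg protein genes, 22 for hormones and their receptors and 4 for Hox genes. This flag asks for less signal than the main one by its construction. When detection on all 3 arrays was asked for, erythroid and thrombocyte markers numbered 1. Spearman's rho for the check of rank was 0.981 (BP5) and 0.982 (BSP-II) with undetected genes included, and 0.979 (BP5) and 0.982 (BSP-II) with the same probes on every array, a setting chosen after seeing the data, and each of these settings changes which genes or probes enter. Across other processing of the untreated array the percentile of JCHAIN ran from 97.39 to 97.46 and of XBP1 from 97.24 to 97.32. That of IRF4 ran from 93.16 to 93.46 and of POU2AF1 from 47.41 to 48.09, and MYC stayed at 99.96. With the peptide arrays, which are other samples, counted in, the range was 97.34 to 97.52 for JCHAIN and 97.24 to 98.65 for XBP1. It was 93.16 to 96.38 for IRF4, 46.53 to 48.09 for POU2AF1 and 99.96 to 100 for MYC. Names as the file gives them and sequence features were not run. Signal over background limits the dimmest calls, which lie near 30.2.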

Other observations

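Several other bright genes of the untreated array, named after their values were seen, belong to growth and chromatin. RAN, the GTPase of nuclear transport, read 67419 in untreated cells, 40010.6 with BP5 and 39252 with BSP-II. H2AFZ, which encodes the histone variant H2A.Z, read 54873 in untreated cells, RBBP4, a histone-binding protein of chromatin complexes, 53775, and HMGB1, a chromatin protein, 32375. Enzymes and carriers of nucleotide and folate metabolism were bright as well: SLC19A1, the reduced folate carrier, read 48863, ATIC, of the last steps of purine synthesis, 40338, and MTHFD2, a mitochondrial folate enzyme, 29662. ACTB, the cytoplasmic actin often used as a reference gene, read 6610.5 and stood at percentile 77.55.

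JUN, a subunit of the factor AP-1, read 52842 in untreated cells, 35738 with BP5 and 46148 with BSP-II, while FOS, its usual partner, sat at the floor on the untreated array. CDKN2A, a cell cycle inhibitor locus, read 50751 in untreated cells, 24779 with BP5 and 26805 with BSP-II. HLF, a transcription factor of liver and of blood stem cells, read 28938, and COL2A1, a collagen of cartilage, 11106, although 12 of 15 genes with a collagen symbol were undetected.

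Genes that share the start of a symbol were counted for starts with at least 10 genes, a grouping chosen after values were seen. Beside the 73.0% of all named genes, 47 of 62 SLC genes, 27 of 34 FAM genes, 7 of 10 USP genes and 9 of 13 NR genes were detected, and 10 of 18 ATP genes. The starts with the highest and lowest shares are picked by those shares. All 14 RAB genes, 10 SEC genes, 17 RNF genes and 11 UBE genes were detected on the untreated array, of membrane traffic and ubiquitin transfer. Of 11 WNT genes 1 was detected (WNT5A, 154), of 28 IL genes 5 (IL18 at 242, IL11RA at 226, IL6ST at 100.2, IL4R at 72.9 and IL4 at 31.6), of 10 CDH genes 2, of 14 CYP genes 4 and of 11 FGF genes 4. Probes with a curated mRNA accession were detected in 72.8% of 3837 cases, and those with a predicted one in 63.9% of 1059.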
